A study of Homo sapiens with 9 samples.

Results

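Of the 26485 genes in the deposited count table, 529 carry a numbered ZNF symbol, and 249 of these had every exon entry on chromosome 19. These 249 zinc finger genes of chromosome 19 are described here. They were taken by symbol and by chromosome, without use of any measured value, and ordered by start (hg38). Within the set, 15 genes lie in a stretch that starts at 52527656 with ZNF808 and whose last member, ZNF415, starts at 53107879. This stretch was singled out because earlier results of the same libraries had shown it to stand apart, so its values are a description and no test of it as a group was made. The remaining 234 members, the 276 numbered ZNF genes on other chromosomes and the 1395 other genes of chromosome 19 served as comparison. A further 4 ZNF genes were left out of both sets because they have entries on chromosome 19 and on an alternate contig.

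The libraries were poly(A)-selected RNA from HEK293, an established human embryonic kidney cell line. The 3 addback libraries came from cells labelled UBE3D addback, named in the deposited comparison tables as knockout cells with UBE3D. The 3 KO libraries came from cells in which UBE3D had been knocked out by CRISPR/Cas9, and the 3 WT libraries from cells labelled UBE3D WT. All groups share the HEK293 background and its culture in DMEM with fetal bovine serum. The labels call the samples pooled and name no clone, so a difference that addback and KO cells share against WT cells cannot be told apart from a difference between cell lines. The UBE3D gene encodes a ubiquitin ligase, and the study looked at RNA levels and at transcription past gene ends when it is missing.

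Most zinc finger genes of chromosome 19 encode proteins with a KRAB domain followed by a row of C2H2 zinc fingers that read DNA. The KRAB domain binds TRIM28 (KAP1), which brings in the histone methyltransferase SETDB1 and HP1 proteins, and the resulting H3K9me3 chromatin silences transposable elements and some genes. The genes arose by repeated tandem duplication, so that neighbours are often close relatives, and the gene clusters themselves can carry H3K9me3 over their zinc finger exons.

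The promoters of the stretch are GC-rich, with a median of 66.8% G and C against 59.6% in the other members. Of the 249 members, 209 had a promoter in the RefSeq table for GRCh38.p14, and of the 15 in the stretch 9 did. To show what the start sites look like, the 250 bases upstream are printed 5′ to 3′ for 3 members of the stretch and for ZNF528 and ZNF845, the nearest members on either side whose levels were close in all groups. Capitals mark CG dinucleotides, counted on the printed strand (both strands hold the same number). ZNF160 is at chr19:53103423-53103672, ZNF320 at chr19:52897695-52897944 and ZNF468 at chr19:52857620-52857869, all on the minus strand. ZNF528 is at chr19:52397599-52397848 and ZNF845 at chr19:53333499-53333748, both on the plus strand.
ZNF160: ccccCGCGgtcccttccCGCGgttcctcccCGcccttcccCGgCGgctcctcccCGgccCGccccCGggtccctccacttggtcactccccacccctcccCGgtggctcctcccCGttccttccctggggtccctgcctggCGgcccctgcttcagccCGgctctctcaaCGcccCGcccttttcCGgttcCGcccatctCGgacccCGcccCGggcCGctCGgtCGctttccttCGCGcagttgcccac
ZNF320: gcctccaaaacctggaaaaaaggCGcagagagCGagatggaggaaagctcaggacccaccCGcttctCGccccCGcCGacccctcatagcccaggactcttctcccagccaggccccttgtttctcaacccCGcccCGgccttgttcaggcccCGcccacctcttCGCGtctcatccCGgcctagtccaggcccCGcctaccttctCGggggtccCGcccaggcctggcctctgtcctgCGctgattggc
ZNF468: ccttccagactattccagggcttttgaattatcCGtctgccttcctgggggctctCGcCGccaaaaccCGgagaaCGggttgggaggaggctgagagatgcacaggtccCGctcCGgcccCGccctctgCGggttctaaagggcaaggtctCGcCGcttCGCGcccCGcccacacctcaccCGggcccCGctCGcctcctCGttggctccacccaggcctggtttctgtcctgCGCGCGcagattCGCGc
ZNF528: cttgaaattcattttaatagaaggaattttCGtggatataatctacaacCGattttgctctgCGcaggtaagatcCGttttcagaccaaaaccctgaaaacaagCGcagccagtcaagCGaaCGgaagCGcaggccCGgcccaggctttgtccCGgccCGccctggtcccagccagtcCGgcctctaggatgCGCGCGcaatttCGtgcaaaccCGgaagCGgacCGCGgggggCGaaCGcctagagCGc
ZNF845: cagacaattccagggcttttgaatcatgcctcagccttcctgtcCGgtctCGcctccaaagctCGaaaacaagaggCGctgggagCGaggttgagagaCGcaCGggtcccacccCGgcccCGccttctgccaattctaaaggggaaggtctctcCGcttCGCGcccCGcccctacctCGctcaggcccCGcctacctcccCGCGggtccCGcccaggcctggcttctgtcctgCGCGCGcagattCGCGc
ZNF160 has 26 CG, ZNF320 has 16 and ZNF468 has 23, against 23 in ZNF528 and 23 in ZNF845. Over the 9 promoters of the stretch the count ran from 11 to 26 with a median of 20. The median was 16 over the 200 promoters of the other members and 11 over all 27305 promoters in the table, of which 93.6% hold at least 1 CG. The promoters share stretches of sequence: the longest identical run was 45 bases between ZNF808 and ZNF701, both in the stretch, and the longest between a member of the stretch and ZNF845 outside it was 28 bases, with ZNF83.

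Total counts ran from 23088295 to 37508780 per library. UBE3D itself had 94248, 101741 and 81002 counts in the addback libraries, 356, 433 and 558 in the KO libraries and 580, 740 and 590 in the WT libraries; the KO level was lower than WT by a log2 fold change of -0.66 (edgeR adjusted p = 0.00321), so KO cells still held UBE3D RNA. The addback and WT libraries also held counts spread over coding exons of genes that HEK293 cells are not known to use. Measured over 549 such genes, this background came to 2.81, 11.7 and 11.7% of the counts in the addback libraries, 0% (median) in the KO libraries and 3.03, 8.24 and 14.8% in the WT libraries. The 11 marker genes of other cell types summed to 107 to 179 CPM in addback, 70.8 to 76.9 in KO and 86.4 to 214 in WT libraries. None of them was at 0 in every library of a group. COL1A1 and HBB made up most of the sum in KO libraries, with averages of 44.1 and 27.4 CPM. They averaged 57.6 and 32.9 CPM in addback and 46.3 and 29.6 in WT libraries. Every other marker averaged at most 1.37 CPM in KO, and each averaged higher in addback and in WT. The 8 HEK293 genes summed to 2450 to 2590, 2800 to 3070 and 2490 to 2570 CPM in addback, KO and WT libraries. This sum hides single genes: IRS4 averaged 336 CPM in addback, 209 in KO and 841 in WT cells. PAX2 and NEFM also averaged lower in KO than in WT cells, while VIM, KRT8, KRT18, NEFL and CDH2 averaged higher. The estimate for a gene grows with its coding length and was large beside the level of many members, so levels are given as CPM scaled on 5816 low-background genes (scaled CPM), with and without it.

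In the counts as deposited, every tested zinc finger gene of the stretch was lower in KO than in WT cells. Of its 15 members 14 passed the low-count filter, and all 14 were called lower in KO than in WT by edgeR's quasi-likelihood test at an adjusted p under 0.05, with a median log2 fold change of -3.73. Leaving out any 1 of the 9 libraries left all 14 called lower. This has to be read against a background in which 54.8% of all 21994 genes tested were called lower in KO and 8.04% higher, with a median of -0.50. Among the 232 other members that passed the filter, 127 were called lower and 7 higher, with a median of -0.44. ZNF321P did not pass the filter and had 0, 2 and 1 counts in addback, 0 in each KO and 2, 7 and 0 in WT libraries. ZNF816-ZNF321P, a gene of the interval whose symbol joins ZNF321P to ZNF816, had 0 counts in every library. How reads that fit several genes were counted is not given, so these low counts cannot be read as absence of RNA.

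ZNF160, a KRAB zinc finger gene whose product has been described as a repressor of TLR4, stands near the end of the stretch. It had 3.23, 8.99 and 11 scaled CPM in the addback libraries, 0.473, 0.464 and 0.332 in the KO libraries and 25.4, 25.8 and 38.8 in the WT libraries. The 3 groups did not overlap, with every KO library under 0.5 CPM and every WT library above 25. The log2 fold change of KO against WT was -6.15 ± 0.51 (SE; edgeR adjusted p = 0.000149). ZNF320 had 2.13, 6.42 and 6.94 scaled CPM in addback, 0.947, 0.25 and 1.07 in KO and 14.4, 15.6 and 21.7 in WT libraries. Its groups were again separate, and its fold change of KO against WT was -4.49 ± 0.63 (edgeR adjusted p = 0.00117).

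ZNF28 and ZNF468 are neighbours on the minus strand and had like levels. ZNF28 had 5.29, 12.9 and 15.7 scaled CPM in addback, 1.64, 2.43 and 1.76 in KO and 17.3, 18.8 and 34.6 in WT libraries. ZNF468 had 4.37, 11.3 and 11.7 in addback, 1.49, 1.46 and 1.87 in KO and 16.1, 18.1 and 29.2 in WT libraries. For both, every addback library lay between the KO and the WT libraries. Their log2 fold changes of KO against WT were -3.60 ± 0.46 and -3.71 ± 0.43 (edgeR adjusted p = 0.000866 and 0.000606).

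**Figure D1:**
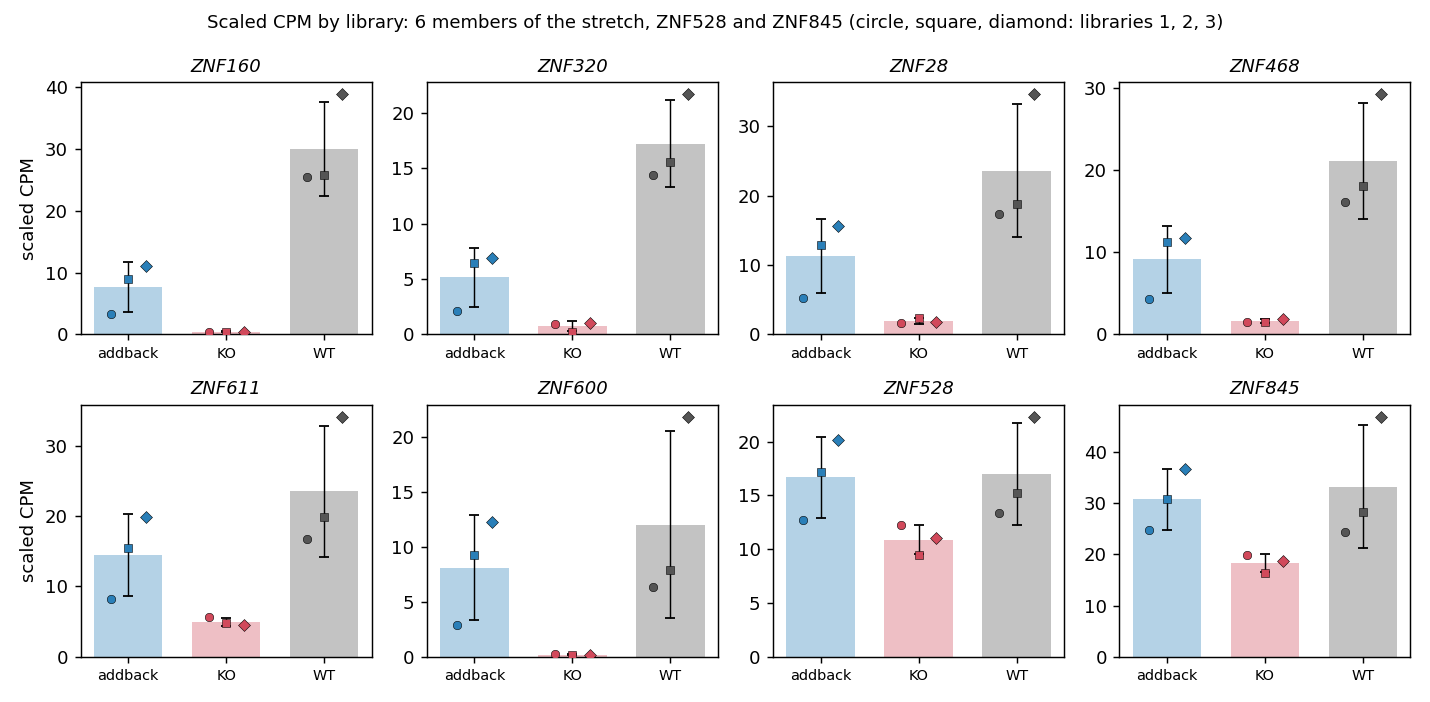
Scaled CPM (vertical axis) in the addback, KO and WT libraries for 6 members of the stretch and for ZNF528 and ZNF845. Bars are means, error bars SD over 3 libraries, and circle, square and diamond are libraries 1, 2 and 3. ZNF160 stays under 0.5 CPM in every KO library and is above 25 in every WT library. ZNF528 and ZNF845, picked for like levels in all groups, differ far less.

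ZNF611 kept the highest level of the stretch in KO cells. It had 8.23, 15.5 and 19.8 scaled CPM in addback, 5.64, 4.85 and 4.52 in KO and 16.7, 19.8 and 34.1 in WT libraries, a log2 fold change of KO against WT of -2.23 ± 0.36 (edgeR adjusted p = 0.00167). ZNF808, a KRAB gene known to repress MER11 elements and required for human pancreas development, had 4.19, 11.7 and 15.9 scaled CPM in addback, 0.838, 0.678 and 0.613 in KO and 8.16, 10.4 and 28.6 in WT libraries. Its addback and WT libraries overlapped, unlike those of ZNF160. ZNF701, ZNF83, ZNF888 and ZNF816 lay between 0.464 and 2.37 scaled CPM in the KO libraries and between 5.91 and 20.2 in the WT libraries, with folds of -2.56 to -3.75. ZNF600 had 2.87, 9.22 and 12.2 scaled CPM in addback, 0.218, 0.214 and 0.153 in KO and 6.32, 7.89 and 21.8 in WT libraries. Its addback and WT libraries overlapped, and in both groups library 1, with the least background, was the lowest.

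ZNF137P, a pseudogene and the only one of 14 not called in addback against KO, had 0.923, 1.12 and 2.52 scaled CPM in addback, 0.801, 0.75 and 0.639 in KO and 2.25, 3.14 and 2.91 in WT libraries. ZNF702P, another pseudogene, and ZNF415, the last gene of the stretch, had no count in any KO library. ZNF702P had 23, 78 and 117 counts in addback, 0 in each KO and 63, 79 and 191 in WT libraries. ZNF415 had 43, 193 and 188 counts in addback, 0 in each KO and 79, 184 and 254 in WT libraries. Inside the interval lie also 2 endogenous retroviral envelope genes, which were lowest in KO cells but averaged more in addback than in WT cells, a difference that was not called. ERVV-1 had 20, 117 and 101 counts in addback, 0 in each KO and 26, 58 and 74 in WT libraries, and ERVV-2 had 20, 101 and 105 in addback, 1, 0 and 1 in KO and 13, 76 and 62 in WT libraries. With the estimated background subtracted neither was called in any comparison (edgeR adjusted p of 0.298 to 1). In both addback and WT cells these counts were lowest in library 1, which had the least background.

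The estimated background made up a different part of the signal in each group. Summed over the 15 members, the stretch had 47.3, 112.2 and 142.3 scaled CPM in the addback libraries, of which the estimate from coding length alone was 22.8, 99.2 and 99.9. The KO libraries had 18.2, 15.4 and 16.7 CPM with an estimate of 0. The WT libraries had 141.6, 165.3 and 307.3 CPM against estimates of 24.4, 69.5 and 127.1. The excess over the estimate was thus smaller in every addback library than in any WT library. As a share of all counts in the 249 members, the stretch made up 0.836, 1.72 and 2.03% in addback, 0.363, 0.325 and 0.329% in KO and 2.56, 2.72 and 4.18% in WT libraries.

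Addback library 1 and WT library 1 had nearly the same background, 0.807 and 0.864 scaled CPM per kilobase of coding sequence, and can be set side by side without any correction. In that pair ZNF160 had 3.23 CPM in addback against 25.4 in WT, ZNF320 2.13 against 14.4, ZNF28 5.29 against 17.3 and ZNF468 4.37 against 16.1. All 14 tested members were lower in the addback library, by 1.13 CPM (ZNF415) to 22.2 CPM (ZNF160). In a fit with only these libraries beside KO, addback against WT was negative in 124 and positive in 122 of all 246 tested members. Those 246 include the stretch. Outside the stretch, ZNF528 had 12.7 CPM in addback against 13.4 in WT, and ZNF845 24.8 against 24.4. Both genes were picked because their levels were close in all groups, so their likeness here is no check. The pair of libraries holds 1 library a side, so it has no replicate check of its own.

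A second way to set the background aside used all 9 libraries: for each gene a line was fitted through its scaled CPM against the background of the library, with 1 slope and a level for each group at zero background. These levels have no test. Ranges are those over fits that leave out 1 library at a time, and the addback level often reached 0 without addback library 1, since libraries 2 and 3 both lie far from zero background. ZNF160 had a level of 0.824 CPM in addback (0 to 1.49), 0.418 in KO (0.393 to 0.469) and 22.6 in WT (21.7 to 24.5). ZNF320 had 0.637 in addback (0 to 0.898), 0.628 in KO (0.488 to 1.01) and 12.6 in WT (12.2 to 13.3). ZNF28 came to 1.89, 1.90 and 13.3 CPM and ZNF468 to 1.74, 1.59 and 13.3 in addback, KO and WT. ZNF611 came to 4.52 in addback, 4.97 in KO and 13.1 in WT, so that it kept 34.7% of its WT level in addback and 38.1% in KO cells, the largest shares in the stretch among genes with a WT level of at least 3 CPM. Over the 14 tested members the median level was 0.806 CPM in addback, 0.776 in KO and 6.23 in WT. For comparison, 95% of the background genes had levels under 0.842 in addback, 0.0803 in KO and 0.624 in WT.

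**Figure D2:**
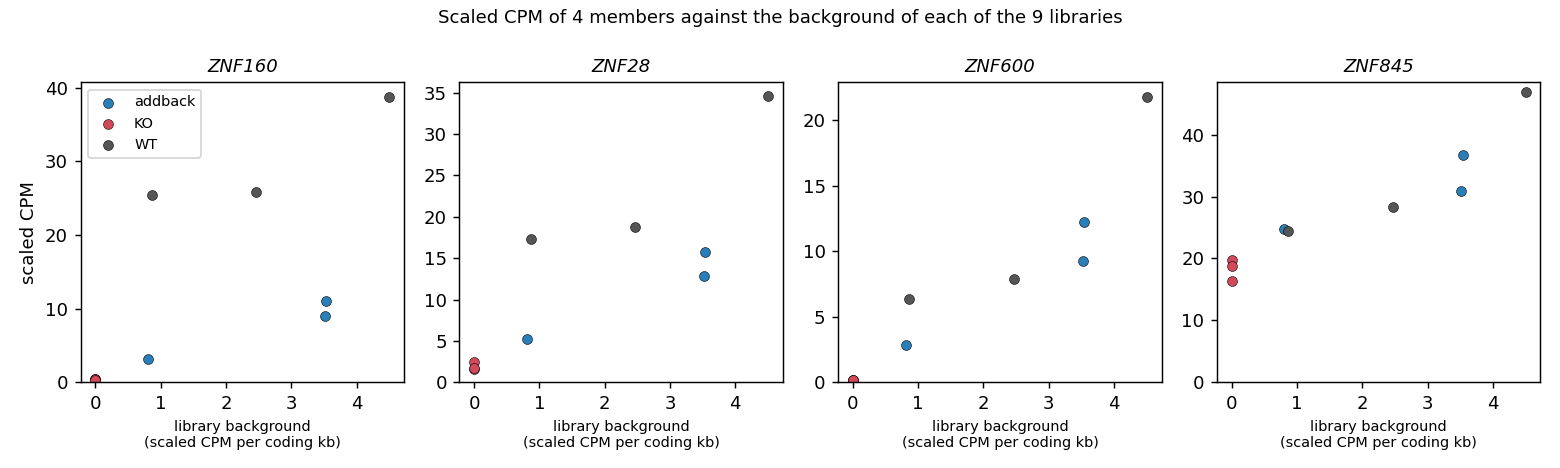
Scaled CPM (vertical axis) of ZNF160, ZNF28, ZNF600 and ZNF845 in each library against the background of that library (scaled CPM per kilobase of coding sequence, horizontal axis). Points are single libraries of addback, KO and WT cells. For ZNF160 the addback points rise from near the KO points and the WT points lie above them at every background. For ZNF845, picked for like levels in all groups, the points run along 1 line.

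With the estimated background subtracted from the counts before the edgeR fit, 8 of the 14 tested members were called lower in KO than in WT and none higher, with a median log2 fold change of -3.12. ZNF137P and ZNF702P, both among the 8, have no coding length, so nothing was subtracted from them and their calls say nothing about the subtraction. Of all genes, 23.5% were called lower and 8.22% higher in that run. With 1 library left out as well, 6 (any KO library) to 12 (addback library 2) members were called lower. ZNF160 had -5.84 ± 1.08 (edgeR adjusted p = 0.0063), ZNF320 -4.19 ± 0.55 (adjusted p = 0.00143), ZNF28 -3.26 ± 0.40 (adjusted p = 0.00103) and ZNF611 -1.90 ± 0.31 (adjusted p = 0.0037). ZNF701, ZNF83, ZNF468, ZNF888, ZNF816 and ZNF415 were not called, with folds of -1.78 to -7.28 and adjusted p of 0.0908 to 0.281. Among the other 232 members 55 were called lower and 13 higher, with a median of -0.09. Subtracting 2 times the estimate left ZNF160 and ZNF320 called lower, beside ZNF137P and ZNF702P, which had no estimate, and a median of -1.55.

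Over the stretch the levels at zero background in addback cells were close to those in KO cells, while the counts as deposited were higher in addback than in KO. As deposited, 13 of the 14 members were called higher in addback than in KO, with a median log2 fold change of 2.61, where 52.1% of all genes were called higher and 5.49% lower. Background-subtracted counts left 3 of 14 called higher, with a median of 0.77, against 17.2% higher and 4.09% lower of all genes. These 3 were ZNF808 (2.37 ± 0.70, edgeR adjusted p = 0.0459), ZNF28 (1.54 ± 0.38, adjusted p = 0.026) and ZNF702P. ZNF702P is a pseudogene with no coding length, so its background could not be estimated and nothing was subtracted from it. In addback and in WT its counts were lowest in library 1, which had the least background, so its call is not corrected for background. Only 1 member was called without any 1 KO library or without addback library 3. ZNF160 had 1.20 ± 0.97 (adjusted p = 0.419) and ZNF320 0.67 ± 0.50 (adjusted p = 0.377). With 2 times the estimate subtracted the median was -4.81, with 1 member called higher and 3 lower.

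Addback against WT shares its libraries with both other comparisons. As deposited, all 14 folds were negative with a median of -0.85, and only ZNF160 was called lower (-1.95 ± 0.40, edgeR adjusted p = 0.0169); without addback library 2 it was not, and without WT library 3 the median was -0.38. Of all genes 4.63% were called lower and 4.79% higher. Libraries with the same number in addback and WT varied together over all tested genes, but less over low-background genes. With the replicate number as a block 4 members were called lower: ZNF160 (-2.05 ± 0.31, edgeR adjusted p = 0.00282), ZNF468 (-1.25 ± 0.26, adjusted p = 0.0144), ZNF320 (-1.79 ± 0.44, adjusted p = 0.0308) and ZNF28 (-1.11 ± 0.28, adjusted p = 0.033). In that blocked fit 6.02% of all genes were called lower and 6.15% higher. Background-subtracted counts gave a median of -2.29 and 3 calls, ZNF320 (-3.52 ± 0.53, adjusted p = 0.0036), ZNF28 (-1.72 ± 0.37, adjusted p = 0.0193) and ZNF160 (-4.64 ± 1.01, adjusted p = 0.0196), against 6.29% lower and 5.95% higher of all genes. The folds of ZNF415, ZNF600, ZNF702P and ZNF808 in the deposited counts turned positive without WT library 3, the library with the most background.

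The low levels did not end exactly at the borders of the stretch. Before ZNF808, ZNF578 had levels at zero background of 1.11, 1.21 and 1.77 CPM in addback, KO and WT, and ZNF534 had 0 in addback, 0.130 in KO and 1.08 in WT. The next gene outwards, ZNF528, had 10.6 in addback, 10.8 in KO and 10.9 in WT. Beyond ZNF415, ZNF347 had 0 CPM in addback, 0.0575 in KO and 2.11 in WT. ZNF665 had 0 in addback, 0 in KO and 1.16 in WT, and ZNF677 had 0.157 in addback, 0.363 in KO and 1.97 in WT. The run ended at ZNF845 with 18.8 in addback, 18.2 in KO and 20.4 in WT. ZNF534, ZNF347, ZNF665 and ZNF677 therefore had low levels in addback and KO cells like the stretch, but their WT levels were also low. Across the 28 members of the same cluster outside the stretch (from ZNF175 to ZNF331, all tested), the median levels were 12.5 in addback, 11.9 in KO and 11.5 CPM in WT. ZNF331, an imprinted gene at the far end, had 72.9 in addback, 73.9 in KO and 70.5 in WT.

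**Figure D3:**
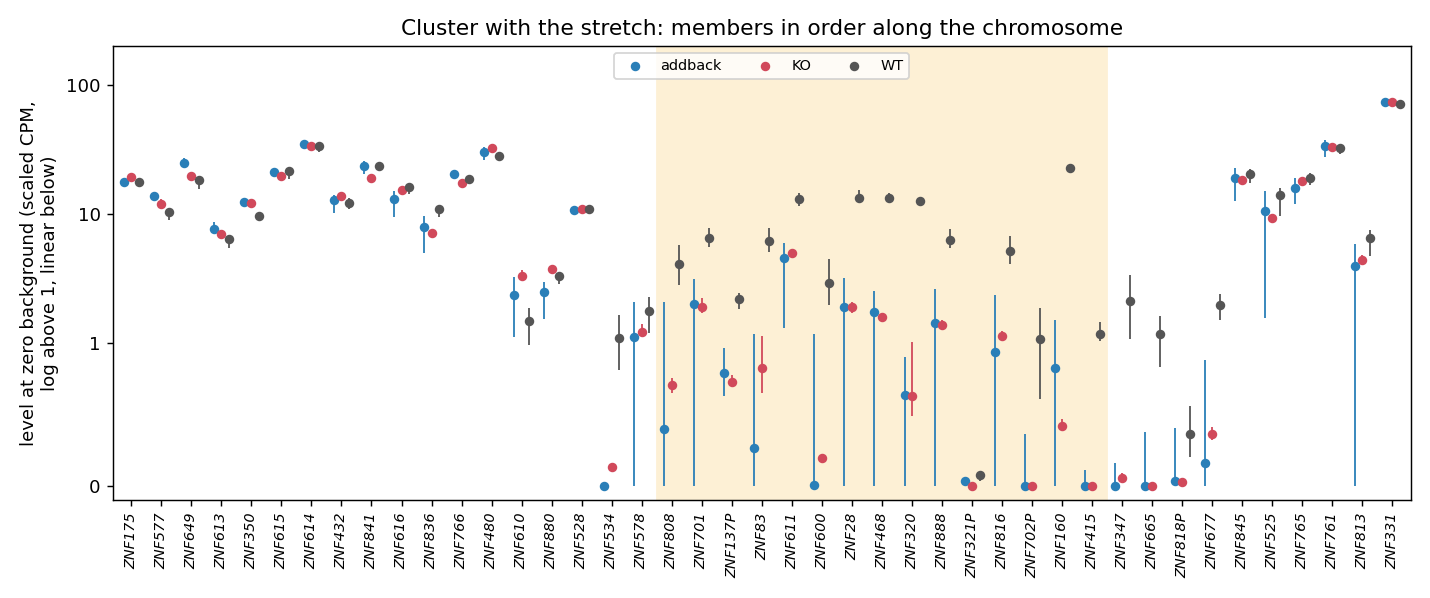
Level at zero background (scaled CPM; log axis above 1, linear below) in addback, KO and WT for the 43 members from ZNF175 to ZNF331 in their order along the chromosome, with the stretch shaded. Vertical lines are ranges over fits that leave out 1 library. In the shaded stretch the WT points lie above the addback and KO points. At ZNF528 and ZNF845, picked for like levels in all groups, the points lie together.

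A rule chosen after these values were seen counted genes whose level at zero background was at least 3 CPM in WT and under 25% of that in both addback and KO cells. Of all 12912 genes with such a WT level, 73 met it (0.565%). Among zinc finger genes of chromosome 19, 16 of 213 did. In the stretch these were ZNF808, ZNF83, ZNF28, ZNF468, ZNF320, ZNF888, ZNF816 and ZNF160, 8 of 10 eligible members, with ZNF701 and ZNF611 the exceptions. Outside it 8 of 203 met the rule. Of the 237 eligible zinc finger genes on other chromosomes and the 682 other eligible genes of chromosome 19, none did; ZNF676, one of the 4 genes with an alternate-contig entry, did.

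All 8 members outside the stretch that met the rule lie in 1 cluster of 32 members, from ZNF101 (start 19668153) to ZNF254 (start 24033405). They were ZNF90, ZNF737, ZNF626, ZNF208, ZNF729, ZNF99, ZNF730 and ZNF726. ZNF99 had 5.96, 14.8 and 21 scaled CPM in addback, 0.0728, 0 and 0.0256 in KO and 10.5, 20 and 51.1 in WT libraries. Its addback and WT libraries overlapped, while its KO libraries held 2, 0 and 1 counts. ZNF208 had 5.36, 17 and 26.7 scaled CPM in addback, 0.182, 0.0714 and 0.256 in KO and 11.8, 21.1 and 51.5 in WT libraries. ZNF730 had 1.77, 5 and 7.90 scaled CPM in addback, 0.328, 0.286 and 0.179 in KO and 6.38, 8.59 and 18.9 in WT libraries. Its libraries number 1, at like background, thus stood at 1.77 CPM in addback against 6.38 in WT.

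All 8 were called lower in KO than in WT as deposited, where 54.8% of all genes were; the rule used the same libraries, so nothing is read from this count. The folds ran from ZNF99 (-9.56 ± 1.05, edgeR adjusted p = 0.00049) to ZNF726 (-3.48 ± 0.65, adjusted p = 0.00243). None was called in addback against WT, where the folds ran from -0.70 (ZNF737) to -1.20 (ZNF730). Their WT levels at zero background rest more on single libraries than those of ZNF160: ZNF99 had 7.96 CPM with a range of 5.48 to 12.4 over fits leaving out 1 library, and ZNF729 5.4 with a range of 3.18 to 9.01. These genes did not form an unbroken run. ZNF714, ZNF430 and ZNF431 lie between ZNF626 and ZNF208, and ZNF714 had 88.3, 88.4 and 88.3 CPM at zero background in addback, KO and WT. ZNF91, whose product silences SVA elements, had 16.3 CPM in addback, 19.4 in KO and 27.3 in WT, and ZNF93, whose product silences L1 elements, 7.51 in addback, 7.80 in KO and 11.8 in WT.

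**Figure D4:**
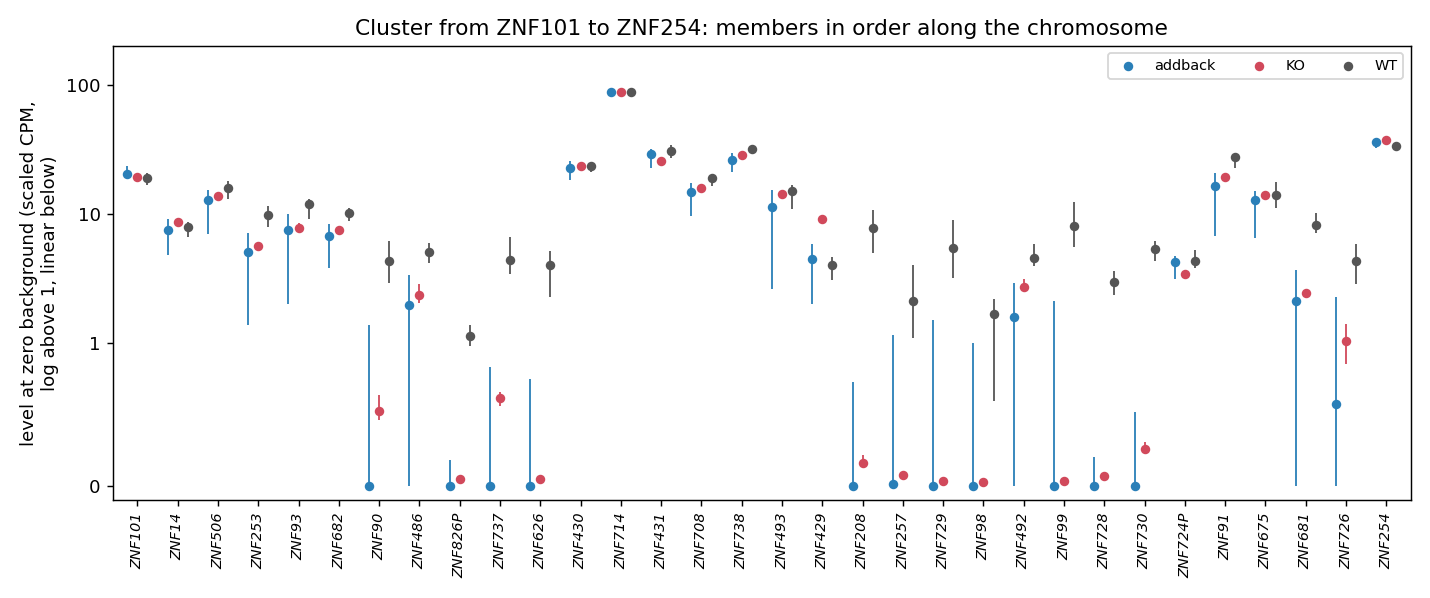
Level at zero background (scaled CPM; log axis above 1, linear below) in addback, KO and WT for the 32 members from ZNF101 to ZNF254 in their order along the chromosome. Vertical lines are ranges over fits that leave out 1 library. ZNF90, ZNF737, ZNF626, ZNF208, ZNF729, ZNF99 and ZNF730 lie at or under 0.613 CPM in addback and KO and above 4 in WT, while ZNF714 lies at 88.3 to 88.4 in all groups.

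Lower down, 8 further genes between ZNF439 (start 11866029) and ZNF442 (start 12349371) had WT levels of 0.894 to 2.68 CPM at zero background and lower levels in both other groups, under the 3 CPM that the rule asked for. ZNF563, for example, had 0.0835 CPM in addback, 0.566 in KO and 2.54 in WT, and ZNF439 had 0.0775 in addback, 0.194 in KO and 2.09 in WT. ZNF812, on its own in another cluster, had 0 in addback, 0.0116 in KO and 1.24 in WT. These genes were picked after their values were seen.

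Most zinc finger genes of chromosome 19 held their level. Of the 203 members outside the stretch with a WT level of at least 3 CPM at zero background, 158 (77.8%) lay between 75 and 133% of WT in both addback and KO cells, where 74.8% of all genes did. None of the 10 eligible members of the stretch did. The median of these 203 was 103% of WT in addback and 94.9% in KO cells; in the stretch it was 13.7% in addback and 15.8% in KO. The share differed between clusters. It was 12 of 28 (42.9%) from ZNF101 to ZNF254 and 11 of 17 (64.7%) from ZNF653 to ZNF791, the clusters with the further low genes described above. It was 16 of 21 (76.2%) in the rest of the cluster that holds the stretch. It was 19 of 23 from ZNF575 to ZNF296, 49 of 57 from ZNF628 to ZNF446, 23 of 25 from ZNF565 to ZNF573 and 12 of 13 from ZNF557 to ZNF846.

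**Figure D5:**
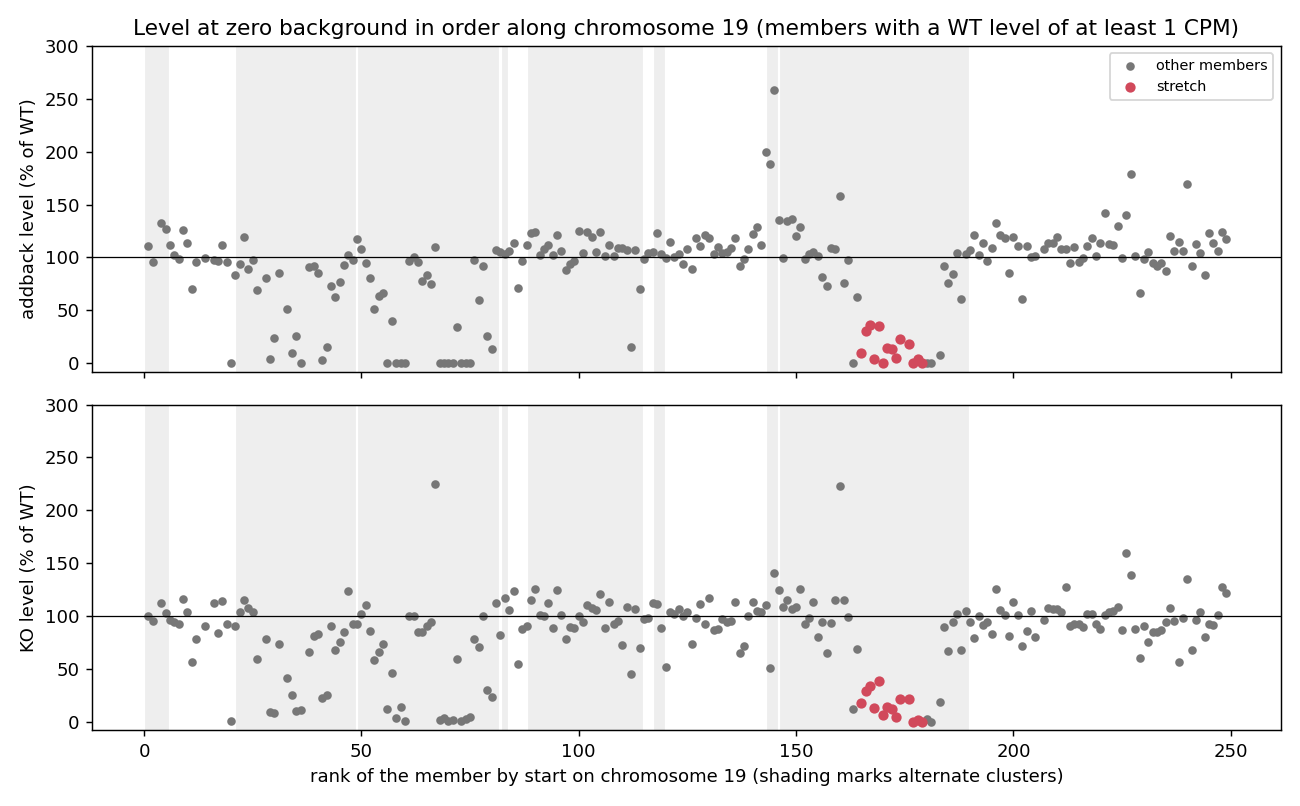
Level at zero background as a percentage of the WT level (vertical axis) in addback (upper panel) and KO cells (lower panel), for members with a WT level of at least 1 CPM, against their rank by start on chromosome 19. Red points are the stretch, grey points the other members, and shading marks alternate clusters. Most points lie near 100%, and the stretch lies under 40% in both panels, next to a few grey points; further low points lie in the clusters before rank 82.

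Per kilobase of exon the highest background-subtracted levels in KO cells belonged to ZNF146, ZNF227, ZNF428, ZNF302 and ZNF580. ZNF146, which encodes zinc fingers with no KRAB domain, had 91.7 CPM per kilobase in addback, 88.9 in KO and 73.5 in WT. In scaled CPM it had 328, 329 and 334 in addback, 335, 332 and 335 in KO and 270, 264 and 262 in WT libraries. Addback and KO libraries overlapped and both lay above WT, with log2 fold changes of 0.32 ± 0.02 for addback against WT (edgeR adjusted p = 7.5e-05) and 0.33 ± 0.02 for KO against WT (adjusted p = 5.8e-05). ZNF428 and ZNF302 differed by at most 0.09 in any comparison as deposited, with no call.

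A few members outside the stretch were called higher in KO than in WT both as deposited and with the background subtracted: 7 of 232, where 6.42% of all genes were. Of these ZNF324, ZNF274, ZNF581, ZNF146 and ZNF227 had the largest folds. ZNF274, known to bind the 3′ ends of zinc finger genes and to recruit SETDB1 there, had 61.3, 64.5 and 66.4 scaled CPM in addback, 52.7, 44.8 and 50.9 in KO and 37.0, 39.9 and 39.5 in WT libraries. Its 3 groups did not overlap. Its log2 fold changes were 0.35 ± 0.07 for KO against WT (edgeR adjusted p = 0.00267), 0.37 ± 0.07 for addback against KO (adjusted p = 0.0028) and 0.72 ± 0.07 for addback against WT (adjusted p = 0.000267). By both counts 55 of 232 were lower in KO, near the 23.0% of all genes that were, and the largest subtracted folds were those of ZNF99, ZNF665, ZNF812, ZNF729 and ZNF626, from -7.43 to -9.04. ZNF812 has no coding length in the annotation, so nothing was subtracted from it.

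In addback against KO, 32 of the 232 members outside the stretch were called higher by both counts, where 16.8% of all genes were. ZNF812, ZNF99, ZNF626, ZNF826P and ZNF728 led them. The KO level of each was at most 0.109 scaled CPM in any library, and ZNF812 and ZNF826P had no background subtracted for want of a coding length. Only ZNF507 was called lower by both (-0.13 ± 0.04 as deposited, edgeR adjusted p = 0.0129), where 3.24% of all genes were. In addback against WT, 9 of the 232 were called higher by both and none lower, where 4.47% of all genes were higher and 4.54% lower. ZNF274 led them, followed by ZNF473, ZNF581, ZNF829 and ZNF558. ZNF473 encodes ZFP100, a part of the U7 machinery that processes histone pre-mRNA, and had 48.2, 51.5 and 57.0 scaled CPM in addback, 47.7, 39.7 and 44.4 in KO and 35.6, 42.3 and 42.0 in WT libraries. Its fold of addback against WT was 0.39 ± 0.10 (edgeR adjusted p = 0.0395).

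Only 29 members had little background in relation to their level, and none of these lies in the stretch. In KO against WT 6 of them were called higher and 6 lower, with a median of 0.01, where 8.04% of all genes were higher and 54.8% lower. In addback against KO 12 were called higher and 1 lower (median 0.15), where 52.1% of all genes were higher and 5.49% lower. In addback against WT 7 were called higher and none lower (median 0.11), where 4.79% of all genes were higher and 4.63% lower. These counts depend on the scaling, which was set on low-background genes. With TMM factors over all genes, which moved the median fold of all genes in KO against WT to -0.12 and that in addback against KO to 0.14, 21 of the 29 were called higher and none lower in KO against WT (median 0.37), where 24.2% of all genes were higher and 37.4% lower. With those factors none was called higher and 8 were called lower in addback against KO (median -0.20), where 38.0% of all genes were higher and 21.8% lower. ZNF587 and ZNF776, for example, had folds of KO against WT of -0.29 and -0.36, and of 0.08 and 0.02 with TMM over all genes.

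Of the 25 listed genes of the KRAB repression machinery 24 were tested, and H3F3A had 0 counts in every library. How reads that fit several genes were counted is not given, so the 0 of H3F3A cannot be read as absence of its RNA. All 24 lay between 75 and 133% of WT in both addback and KO cells at zero background. So did 74.8% of all genes with a WT level of at least 3 CPM and 93.1% of the low-background members. These levels were scaled on low-background genes. In KO against WT 6 were called higher and 5 lower, with a median of 0.00, against 8.04% higher and 54.8% lower of all genes. With TMM over all genes 16 were called higher and none lower, with a median of 0.37, against 24.2% higher and 37.4% lower of all genes. TRIM28, the corepressor that KRAB domains bind, averaged 926 ± 8.94 scaled CPM in KO and 799 ± 40.7 in WT cells (SD, n = 3), a log2 fold change of 0.21 (edgeR adjusted p = 0.00672). SETDB1, the H3K9 methyltransferase, averaged 90.2 ± 1.59 in KO and 88.8 ± 6.35 in WT cells with no call. CBX5 (HP1 alpha) averaged 380 ± 23.3 in KO and 289 ± 14.8 in WT cells and was called higher (0.39, edgeR adjusted p = 0.00148), while CHD3 (262 ± 19.2 in KO and 338 ± 10.7 in WT; -0.37, adjusted p = 0.0011) and TRIM24 (55.0 ± 0.065 in KO and 71.5 ± 6.39 in WT; -0.38, adjusted p = 0.0017) were called lower. With TMM over all genes CHD3 and TRIM24 were not called (-0.01 and 0.00), while TRIM28, CBX5 and SETDB1 were called higher (0.57, 0.75 and 0.40). In addback against KO 3 of the 24 were called higher and 8 lower (median -0.05), where 52.1% of all genes were higher and 5.49% lower. TMM over all genes gave none higher and 20 lower (median -0.39), where 38.0% of all genes were higher and 21.8% lower. Between addback and WT 1 was called higher and 5 lower (median -0.01), where 4.79% of all genes were higher and 4.63% lower.

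In the authors' deposited table of genes for KO against WT, all 14 members of the stretch that it lists were lower at an adjusted p under 0.05, where 41.2% of its 23806 genes were lower and 21.1% higher. In the authors' deposited table of genes for addback against KO, 13 of the 14 were higher, where 39.8% of its genes were higher and 22.2% lower. The regions downstream of genes lie outside coding exons. In the authors' deposited table of downstream-of-gene regions for KO against WT, 25.0% of 2541 regions were lower and 24.8% higher. Of 5 regions hosted by members of the stretch all 5 were lower, and of the 85 hosted by other members 40 were lower and 7 higher. The region behind ZNF160 (53060615 to 53066614, 6000 bases, hg38) had a log2 fold of -5.76 ± 0.50 (SE; adjusted p = 1.75e-28) in the authors' deposited table. Those behind ZNF808, ZNF701 and ZNF611 and the one listed for ZNF321P and ZNF816 together had -1.93, -3.43, -1.59 and -2.41 in the authors' deposited table. In the authors' deposited table of regions for addback against KO, where the folds are shrunken and not on the same scale, 4 of the 5 regions of the stretch and 36 of 81 regions of other members were higher, where 18.6% of all regions were higher and 15.5% lower. The region behind ZNF160 had 0.69 ± 0.66 (adjusted p = 0.00856) and that behind ZNF701 2.25 ± 0.68 (adjusted p = 5.19e-06) in the authors' deposited table.

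Relatives in the set share sequence, which limits how reads are assigned. Over the 242 tested members with an annotated transcript, a median of 1.15% of the 50-base words of a gene occurred in another gene not overlapping it. The highest value was 41.0% for ZNF98. Words shared with genes that overlap a member in position were not counted. The share can thus be too low for such members, as may be so for ZNF816 and ZNF321P beside ZNF816-ZNF321P. In the stretch the share ran from 0.246% in ZNF415 to 15% in ZNF888, with 1.45% in ZNF160 and 3.03% in ZNF320. How the counts treat strand and reads that fit several genes is not given in the sources used here, so values of ZNF888, ZNF808 and ZNF600, which share 10% of their words or more, are less certain.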

How the data were processed

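RNA was poly(A)-selected after TRIzol extraction, per the labels. The submitters' processing notes name cutadapt 1.8.1, STAR 2.5.2b, DESeq2 and hg38 without saying which step each served; how counts were made, and with which annotation, is not given in the sources used here. Deposited was a table of raw counts per gene for 9 libraries (unit: count), with exon lengths in bases (unit: other). The columns marked KO.U were taken as addback, since comparison tables from the same deposit spell that name out as UBE3D in KO cells. Those tables, also by the authors, give base means (unit: signal), fold changes with standard errors (unit: log2), a test statistic (unit: score), p-values and adjusted p-values, and region lengths. Judged by the relation of fold to standard error, the region folds of KO against WT are unshrunken and those of addback against KO shrunken. Deposited region starts were raised by 1. Of the sample columns, 0 went unused.

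Symbols were matched to GENCODE v29 on hg38: 245 of 249 members matched and 239 had a coding length. Clusters were split where starts lay more than 1 Mb apart, giving 16. The background of a library was taken over 549 tissue-restricted genes, as their median count per coding kilobase; the estimate for a gene is that rate times its coding length. A gene was low-background where the estimate did not exceed 10% of its mean CPM and where 10% or more of its exon length was coding. Scaled CPM use TMM factors from the 5816 such genes.

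The main test was edgeR 4.0.16 (R 4.3.3). After filterByExpr 21994 genes were left, and 1 quasi-likelihood fit over all libraries with group as the only term gave the 3 comparisons, with Benjamini-Hochberg adjusted p over all genes and a threshold of 0.05. Fold changes are log2. DESeq2 1.42.0 served as an alternative. Levels at zero background are intercepts of weighted lines with no negative term (numpy 2.4.6, scipy 1.17.1), and have no test. The steps were tested on simulated data. The labels do not say that libraries came from separate cultures, so p-values measure the spread between libraries, which may be technical. No library was a copy of another. Same-number libraries of addback and WT deviated together (correlation of deviations 0.89, 0.60 and 0.74 over all tested genes), so the replicate block is given for that comparison. Over low-background genes the values were 0.51, 0.20 and 0.60, and addback library 2 had 0.23 with WT library 1. For KO against WT the values over all tested genes were -0.034, -0.043 and -0.013.

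The named genes were all tested members of the stretch, in each comparison the 5 other members with the largest background-subtracted fold in each direction called in both runs, the 5 with the highest level per kilobase in KO, and the KRAB repression list; exceptions are marked. Members and lists were chosen with earlier results of these data known. The rule on levels at zero background was chosen after seeing the data.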

Additional observations from a re-analysis of the deposited data

How the results depend on the processing

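As deposited, 7 members were called higher and 141 lower in KO against WT, 166 higher and 1 lower in addback against KO, and 9 higher and 1 lower in addback against WT; fold medians of the stretch differed from those of the other members by -3.29, 2.09 and -0.86. In KO against WT the number higher was 43 with TMM over all genes, 21 with upper quartile factors, 34 with DESeq2 size factors and 34 with DESeq2, 13 with the background subtracted, 20 with 2 times the background, 12 with WT library 1 and addback library 1 alone beside KO (the lone libraries assumed to vary like KO), and 15 with the replicate block and the background subtracted. The number lower was 87 with TMM over all genes, 63 with the background subtracted, 17 with 2 times it, 6 with low-background genes only and 63 with the replicate block and subtraction. TMM over all genes moved the median fold of all genes to -0.12. In addback against KO the number higher was 78, 86 and 88 (TMM over all genes, DESeq2 size factors, DESeq2), 35 with the background subtracted, 7 with 2 times it, 14 with low-background genes and 44 with the replicate block and subtraction; the number lower was 14, 5, 17, 11 and 17 (TMM over all genes, upper quartile, DESeq2 size factors, 2 times the background, DESeq2). In addback against WT the number higher was 2, 3, 17, 4, 20 and 14 and the number lower was 6, 6, 0, 22, 0, 4, 22, 9 and 5 (higher: TMM over all genes, DESeq2 size factors, background subtracted, only 2 groups, replicate block with only 2 groups, replicate block with subtraction; lower: background subtracted, 2 times it, low-background genes, libraries 1 alone, only 2 groups, replicate block, replicate block with only 2 groups, replicate block with subtraction, DESeq2). In the KO comparisons the replicate block alone left the counts within 1.5 times (157 lower in KO against WT, 193 higher in addback against KO).

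The difference of medians in KO against WT was -1.85 with 2 times the background, -1.98 for a wider stretch and -2.70 from levels at zero background. In addback against KO it was 0.61 with the background subtracted, 1.22 with libraries 1 alone, 0.63 with the replicate block and subtraction and 1.12 for the wider stretch; it reversed to -4.50 with 2 times the background and to -0.08 at zero background. In addback against WT it was -2.29, -5.93, -1.26, -2.69, -0.41 and -3.07 (background subtracted, 2 times it, libraries 1 alone, replicate block with subtraction, wider stretch, zero background). The cause of these shifts was not tested.

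Leaving out 1 library at a time, with and without subtraction, gave 4 to 15 higher and 29 to 160 lower in KO against WT, 9 to 189 higher and 0 to 4 lower in addback against KO, 3 to 17 higher and 0 to 8 lower in addback against WT, and differences of medians of -3.43 to -2.74, 0.29 to 2.34 and -2.73 to -0.54. As deposited, the number higher in addback against KO fell to 88 without KO library 2, 101 without addback library 2 and 90 without addback library 3. In addback against WT the number higher fell to 5 without KO library 3, 3 without addback library 1, 4 without addback library 2 and 4 without WT library 1. The call lower in addback against KO and that in addback against WT were both lost without addback library 2. Single folds reversed with 2 times the background for ZNF701 (0.19) and ZNF816 (0.63) in KO against WT and for ZNF626 (-3.51) and ZNF728 (-4.08) in addback against KO. In addback against WT, folds over fits leaving out 1 library, with and without subtraction, ran from -7.84 to 0.26 for ZNF415, -3.43 to 0.19 for ZNF600, -1.38 to 0.20 for ZNF702P and -2.10 to 0.19 for ZNF808, positive only without WT library 3. Low counts limit the stretch most in KO cells, where 2 of its 14 tested members had 0 counts in every library.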
